A study of Mus musculus with 9 samples.

Results

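The comparison described here set omenta of mice given tumour-specific T cells by the intravenous (IV) route against omenta of mice given saline (PBS). It used 6 of the 9 bulk RNA libraries of the series, 3 IV and 3 PBS, chosen by the treatment in their labels, while the other 3 came from mice given the same cells intraperitoneally (IP). Every mouse was of the C57BL/6 strain, 7 to 10 weeks old, and had received 500000 B16-OVA cells into the peritoneal cavity on day 0. B16-OVA is a mouse melanoma line that carries chicken ovalbumin as a tumour antigen and homes to the omentum. On day 6 the IV mice received OT-I cells, T lymphocytes specific for ovalbumin, electroporated with mRNA for interleukin-12 (IL-12), and the PBS mice received saline by a route that their labels do not state. Omenta were taken 18 h later and poly(A) RNA was sequenced. No group received T cells without the IL-12 mRNA, so the cells and the cytokine cannot be told apart. The mouse numbers IV 1, IV 2 and IV 4, and PBS 1, PBS 2 and PBS 3, are those of the labels.

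The omentum is a fold of fat in the abdomen covered by mesothelium and studded with milky spots, clusters of B cells, macrophages and T cells that sample the peritoneal fluid. OT-I cells are CD8+ T cells that recognise an ovalbumin peptide on MHC class I. IL-12 drives T and natural killer (NK) cells to release interferon-γ (IFN-γ), which acts on most nucleated cells to raise guanylate-binding proteins, immunity-related GTPases, antigen presentation genes and the chemokines that attract more T cells.

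Several features of the libraries bear on every result. Depth ran from 7379798 assigned read pairs in IV 2 to 44626843 in PBS 3, with 29243565 in IV 1, 41146527 in IV 4, 34369342 in PBS 1 and 25993996 in PBS 2. Thinned to the depth of IV 2, 18999 to 20415 genes were detected in the other libraries and 23320 in IV 2, so the shallowest library held the most diverse set of genes. IV 1 and IV 2 held transcripts of the exocrine pancreas, an organ that lies against the omentum. The 27 acinar genes counted, 25 of them tested, summed to 29317 CPM (counts scaled to library size) in IV 1 and 5119 in IV 2. Their sum was 16.8 in IV 4 and 19.5 to 26.2 in the PBS libraries. In addition, IV 4 stood nearer to the PBS libraries than the other 2 did. Across genes, the log2 CPM of IV 4 correlated at r = 0.958, 0.959 and 0.981 with PBS 1, 2 and 3. Correlations with the saline libraries were 0.933 to 0.946 for IV 1 and 0.919 to 0.938 for IV 2. IV 4 correlated at 0.948 with IV 1 and 0.953 with IV 2, while IV 1 and IV 2 correlated at 0.964. Genes are not independent replicates. Markers of the labelled tissue were present in each library, with 18 adipocyte genes summing to 793 to 1866 CPM and 14 mesothelial genes to 193 to 397 CPM over the IV and PBS libraries.

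Across all genes, 2753 of 17123 tested (16.1%) differed between IV and PBS in edgeR's quasi-likelihood test at an adjusted p under 0.05, 1784 higher in IV (10.4%) and 969 lower (5.66%). Most rises were large and most falls were small: 1284 of the genes that rose did so at least 2-fold, against 101 of those that fell. The 3 IV libraries all lay above the 3 PBS libraries for 2830 genes (16.5%) and all below them for 2330 (13.6%), and 2642 of these 5160 genes passed the test. The median log2 fold change over all genes was 0.04. Of all calls 64.8% were rises; in limma on the authors' deposited log2 CPM, where the scaling, the test and the genes tested (18833) all differ, 54.6% were (1553 rises and 1293 falls). The number of calls moved with single libraries: it was 980 without PBS 1, 1794 without PBS 2, 1403 without IV 2 and 4580 without IV 4. Nothing in the labels says that the libraries come from separate cages or processing days, and the p-values measure the spread between these mice only.

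**Figure D1:**
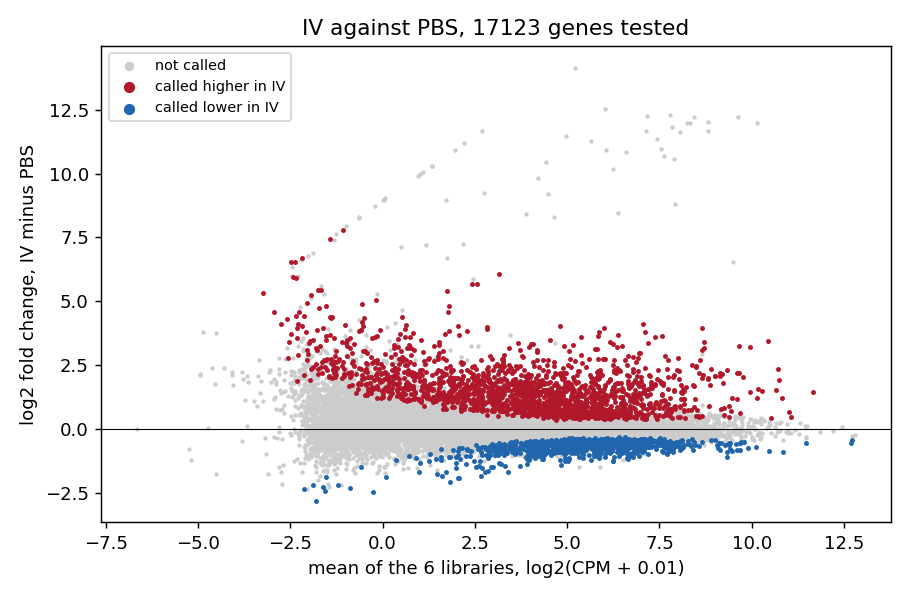
Log2 fold change of each of 17123 tested genes, IV minus PBS, against the log2 mean CPM of the 6 libraries, 1 point per gene, with genes called higher in red and lower in blue. The 1784 rises reach further from 0 than the 969 falls, and the uncalled points far above 0 at high CPM include the pancreatic genes.

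Among called genes averaging 5 CPM or more, with an established symbol and no overlap between the groups, many of the 15 largest rises were genes that IFN-γ is known to induce. Ifng itself, the gene for IFN-γ, was at 0.0819, 1.07 and 1.32 CPM in PBS 1, 2 and 3 and 11.3, 16.3 and 12.4 CPM in IV 1, 2 and 4. Every IV library was above every PBS library, and the rise passed the test (log2 fold change 3.98 ± 0.60, adjusted p = 0.00362, edgeR; ± gives the standard error of a log2 fold change throughout). Values below are in the order PBS 1, 2, 3 and IV 1, 2, 4. Gbp11, one of the guanylate-binding proteins, GTPases that attack the membranes around intracellular pathogens, had the largest fold change of these, at 0.983, 1.80 and 6.56 CPM in PBS 1, 2 and 3 and 46.1, 48.7 and 63.7 CPM in IV 1, 2 and 4 (log2 fold change 4.04 ± 0.58, adjusted p = 0.00351). The groups did not overlap for it, and IV 4 was the highest of the IV libraries. Its relatives Gbp4 (3.97), Gbp10 (3.78), Gbp2b (3.66), Gbp8 (3.60) and Gbp2 (3.43) also rose, on the log2 scale. Gbp2 was at 47.0, 205 and 454 CPM in PBS and 2824, 2449 and 2338 CPM in IV, and PBS 1 was the lowest and PBS 3 the highest of the saline libraries, an order that the IFN-γ response list also had by its median. Reads of these genes may be split among near-identical copies of the family.

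Other genes among the 15 largest rises included the immunity-related GTPases Ifi47 (log2 fold change 3.39 ± 0.56, adjusted p = 0.00501) and Tgtp1 (3.62 ± 0.89, 0.0317), the intracellular serpins Serpina3f (3.64 ± 0.78, 0.0201) and Serpina3g (3.40 ± 0.73, 0.0196) and Apol10b, an apolipoprotein L (3.32 ± 0.45, 0.00221). Il12rb1, a subunit of the receptor for IL-12, was at 1.26, 1.84 and 8.13 CPM in PBS 1, 2 and 3 and 29.3, 34.6 and 63.9 CPM in IV 1, 2 and 4 (log2 fold change 3.47 ± 0.65, adjusted p = 0.0104). It was highest in IV 4 and all IV values exceeded all PBS values. Prph, the neuronal intermediate filament peripherin, was at 6.25, 23.3 and 26.2 CPM in PBS 1, 2 and 3 and 330.0, 268 and 167 CPM in IV 1, 2 and 4 (log2 fold change 3.78 ± 0.47, adjusted p = 0.00193). The saline libraries were low throughout and no IV library came near them. Nos2, which makes nitric oxide in activated macrophages, rose as well (log2 fold change 3.36 ± 0.84, adjusted p = 0.0326), unevenly: it was at 1.45, 1.31 and 3.96 CPM in PBS 1, 2 and 3 and 51.7, 5.20 and 12.5 CPM in IV 1, 2 and 4, IV 1 lying well above the other 2.

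Several of these calls depended on a single library, and PBS 1 lay below the other saline libraries for all of them but Nos2. The edgeR adjusted p without PBS 2 was 0.0634 for Gbp4, 0.0706 for Gbp2, 0.0820 for Serpina3g, 0.0859 for Serpina3f and 0.0501 for Il12rb1. Serpina3f was also lost without IV 2 (adjusted p = 0.0533). Tgtp1 and Gbp10 were lost in most fits that left out 1 library, at up to 0.114 and 0.130. Nos2 was lost without PBS 1 (0.144), PBS 2 (0.114), IP 2 (0.0591) or IP 3 (0.0599), and its log2 fold change without IV 1 was 2.00. Ifng, Gbp11, Gbp2b, Gbp8, Ifi47, Prph and Apol10b kept their calls in each of the 9 fits that left out 1 library.

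**Figure D2:**
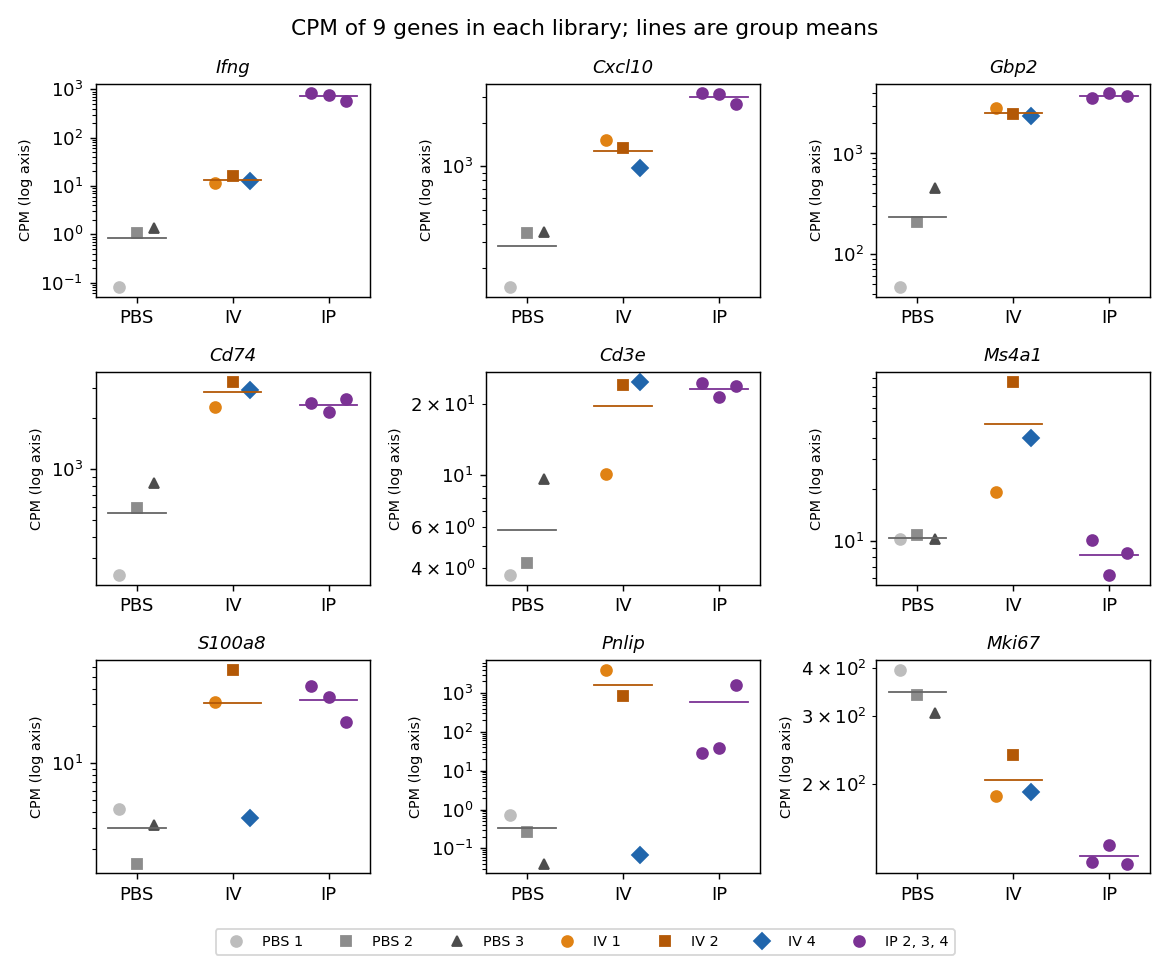
CPM of 9 genes in each PBS, IV and IP library, on log axes, 1 point per library and a line at each group's mean. Ifng, Cxcl10, Gbp2 and Cd74 are above saline in all 3 IV libraries, whereas S100a8 and Pnlip are high in IV 1 and IV 2 and within the saline range in IV 4.

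Upstream sequence of 3 of these genes is shown because transcription factors that interferons activate are known to bind short DNA motifs near the start of interferon genes. The motifs searched were TTCNNNGAA, the palindromic core of the gamma-activated site, and GAAANNGAAA, the core of the interferon-stimulated response element, on both strands. The windows are RefSeq's, on build GRCm38.p6, from 250 bases before to 50 after an annotated start; 9 of the 15 largest rises and 8 of the 15 largest falls had one. TTCNNNGAA was in a window of 4 of the 9 rises and of 8.50% of the 12028 tested genes with a window, and GAAANNGAAA in 4 of the 9 and 3.94%. Neither was in a window of any of the 8 falls. The motifs shared bases in 15 windows of the tested genes and in none of the rises. A match is a description of letters and not of binding. The 120 bases before the start follow, 5′ to 3′ along the gene, with matches in capitals. Tgtp1 holds both motifs, Gbp2 the second one read on the other strand, and Serpina3g the first.
Tgtp1 (chr11:48992247-48992366, minus strand): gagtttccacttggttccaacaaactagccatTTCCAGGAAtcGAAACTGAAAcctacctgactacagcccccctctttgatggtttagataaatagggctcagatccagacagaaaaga
Gbp2 (chr3:142620543-142620662, plus strand): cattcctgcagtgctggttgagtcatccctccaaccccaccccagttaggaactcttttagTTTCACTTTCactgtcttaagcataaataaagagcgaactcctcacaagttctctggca
Serpina3g (chr12:104236027-104236146, plus strand): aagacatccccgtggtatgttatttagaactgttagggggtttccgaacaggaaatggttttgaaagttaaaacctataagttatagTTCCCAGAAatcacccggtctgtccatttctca

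Of the IFN-γ response list, 31 of 32 genes tested rose and none fell, against 10.4% of all genes that rose, with a median log2 fold change of 2.82. Relative to the saline mean, the list's median log2 difference was 3.27, 3.20 and 3.22 in IV 1, IV 2 and IV 4, so the libraries with and without pancreatic transcripts were at one level. Cxcl9, which encodes a chemokine for activated T cells, was the member that missed the threshold (log2 fold change 2.93 ± 0.86, adjusted p = 0.0580), at 9.29, 83.9 and 189 CPM in PBS and 697, 889 and 560.0 CPM in IV. Its IV values were all above the PBS values, but PBS 1 and PBS 3 differed by more than an order of magnitude. It passed without PBS 1 (adjusted p = 0.00356) or PBS 3 (0.0281). Ido1, which degrades tryptophan, was at 0.0546, 0.154 and 0.467 CPM in PBS and 3.82, 3.47 and 2.69 CPM in IV (log2 fold change 3.74 ± 0.49, adjusted p = 0.00208). All 32 members were above every saline library in each IV library. Without PBS 2, 10 members passed the test, and 8 did when no filter on low counts was applied. With 1 IV library kept, 7 passed for IV 1 and 5 each for IV 2 and IV 4.

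All 25 genes of the type I interferon antiviral list rose, with a median of 1.76 and library medians of 1.86, 1.74 and 1.80 in IV 1, IV 2 and IV 4. Oas2, a synthetase that activates RNase L on sensing double-stranded RNA, was at 21.5, 24.3 and 42.8 CPM in PBS and 108, 126 and 110.1 CPM in IV (log2 fold change 1.95 ± 0.23, adjusted p = 0.00182). No IV value overlapped a PBS value. Dhx58 (2.25 ± 0.27), Trim30a (1.71 ± 0.21) and Xaf1 (1.78 ± 0.22) followed it in order of p, on the log2 scale. Ifit2, which blocks translation of viral RNA, was at 71.2, 81.4 and 121 CPM in PBS and 246, 216 and 429 CPM in IV (log2 fold change 1.71 ± 0.28, adjusted p = 0.00419), and was highest in IV 4.

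Antigen presentation genes rose as well. All 20 MHC class I genes rose, with a median of 2.04, and all 11 MHC class II genes, with a median of 2.31. B2m, the light chain of every class I molecule, was at 1184, 2092 and 1946 CPM in PBS and 5014, 4356 and 4819 CPM in IV (log2 fold change 1.44 ± 0.20, adjusted p = 0.00235). H2-T22, a nonclassical class I molecule, rose by 2.02 ± 0.24 on the log2 scale, H2-M3 by 2.06 ± 0.26 and the proteasome activator subunit Psme1 by 1.99 ± 0.26. Cd74, the invariant chain that guides class II molecules, was at 239, 591 and 833 CPM in PBS and 2318, 3250.3 and 2906 CPM in IV (log2 fold change 2.35 ± 0.36, adjusted p = 0.00321). The PBS and IV values did not overlap, and IV 2 was highest and IV 1 lowest of the treated libraries. H2-DMa, which loads peptide onto class II, had the smallest p of the class II genes, at 10.8, 29.8 and 42.4 CPM in PBS and 229, 235 and 195 CPM in IV (log2 fold change 2.99 ± 0.38, adjusted p = 0.00203). Class II library medians were 2.09, 2.74 and 2.42 and class I medians 2.13, 2.25 and 2.13 in IV 1, IV 2 and IV 4.

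T cell genes were higher in IV 2 and IV 4 than in IV 1. Of 24 T cell markers 17 rose and none fell, and the list's medians relative to the saline mean were 0.63, 1.88 and 1.89 in IV 1, IV 2 and IV 4. In bulk tissue, more cells of a type and more RNA per cell cannot be told apart, here or for the cell types that follow. Trbc2, a constant segment of the T cell receptor β chain, was at 5.16, 9.52 and 9.53 CPM in PBS and 16.9, 43.8 and 28.6 CPM in IV (log2 fold change 1.86 ± 0.34, adjusted p = 0.00612). Cd247, the receptor's ζ chain, was at 3.63, 4.99 and 6.22 CPM in PBS and 7.24, 21.9 and 21.0 CPM in IV (log2 fold change 1.74 ± 0.37, adjusted p = 0.0118), IV 1 lying just above PBS 3. Cd3e was at 3.74, 4.22 and 9.57 CPM in PBS and 10.0, 24.0 and 24.9 CPM in IV (log2 fold change 1.73 ± 0.40, adjusted p = 0.0169) and lost its call without PBS 1 (0.0724), PBS 2 (0.0775), IV 2 (0.0620) or IV 4 (0.0529). Cd8a, the coreceptor that OT-I cells carry, was at 3.06, 9.17 and 13.6 CPM in PBS and 8.55, 24.9 and 31.8 CPM in IV and did not pass (log2 fold change 1.33 ± 0.55, adjusted p = 0.131). Its IV 1 value lay within the saline range, and without IV 1 it passed (adjusted p = 0.0346). The count of T cell markers that rose was 5 without PBS 1, 7 without PBS 2, 4 without IV 2, 9 without IV 4 and 23 without IV 1. Cd247 was lost without PBS 1 (0.0567).

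The OT-I receptor uses the β segment Trbv12-1, a marker of the transferred cells that other T cells share. Its counts were 2, 10 and 14 in PBS 1, 2 and 3 and 10, 9 and 113 in IV 1, 2 and 4. Per library size IV 4 was highest, at 2.58 CPM, and IV 1 lay within the saline range. The rise passed (log2 fold change 2.60 ± 0.70, adjusted p = 0.0315, edgeR), but without IV 4 the log2 fold change was 1.41 (adjusted p = 0.165), and the call was also lost without PBS 1 (0.110), PBS 2 (0.0565), PBS 3 (0.0591), IP 2 (0.0548), IP 3 (0.0555) or IV 2 (0.0679). Of the genes of the cytokine given as mRNA, Il12b, the p40 subunit, was at 0.437, 1.23 and 1.38 CPM in PBS and 1.56, 2.00 and 1.96 CPM in IV (log2 fold change 0.84 ± 0.39, adjusted p = 0.169), and Il12a, the p35 subunit, had 1 to 12 counts in the PBS and IV libraries and was not tested. The sources used here do not give the sequence of the electroporated mRNA, so whether its reads would align to these genes is unknown.

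Killing genes were likewise higher in IV 2 and IV 4 than in IV 1. Of 24 genes of cytotoxic and type 1 effector cells 17 rose, with none falling (median 2.01), with library medians of 1.11, 2.57 and 2.36 in IV 1, IV 2 and IV 4. Gzmb, a granzyme that triggers death of the target cell, was at 1.83, 4.95 and 9.27 CPM in PBS and 26.9, 42.8 and 35.6 CPM in IV (adjusted p = 0.00435). Nkg7, a granule membrane protein, was at 3.93, 8.83 and 13.6 CPM in PBS and 34.6, 83.8 and 59.1 CPM in IV (log2 fold change 2.73 ± 0.42, adjusted p = 0.00314). Tnfsf10, the death ligand TRAIL, was at 2.35, 3.49 and 8.31 CPM in PBS and 21.6, 25.7 and 39.3 CPM in IV (log2 fold change 2.60 ± 0.41, adjusted p = 0.00353) and was highest in IV 4. For all 3 genes the IV values exceeded the PBS values. Of 14 NK cell markers 7 rose and none fell (median 1.31). The activating receptor Klrk1 was at 4.75, 10.6 and 15.5 CPM in PBS and 24.0, 63.1 and 50.3 CPM in IV (log2 fold change 2.14 ± 0.41, adjusted p = 0.00809). Ncr1, the receptor NKp46, was at 1.07, 1.19 and 3.21 CPM in PBS and 3.82, 14.5 and 10.6 CPM in IV (log2 fold change 2.35 ± 0.52, adjusted p = 0.0141). Counts of risen effector genes were 10 without PBS 2 and 11 without IV 2, and counts of risen NK markers 2 without PBS 1, PBS 2 or IV 2. Klrk1 was lost without PBS 2 (0.0509) and Ncr1 without PBS 1 (0.0634), PBS 2 (0.0535) or IV 2 (0.0540).

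B cell genes were highest in IV 2. Of 18 B cell markers 16 rose and none fell (median 1.87), with library medians of 0.93, 2.79 and 1.48 in IV 1, IV 2 and IV 4. Cd79b, a signalling chain of the B cell receptor, was at 11.3, 14.4 and 13.8 CPM in PBS and 35.2, 119 and 40.2 CPM in IV (log2 fold change 2.28 ± 0.43, adjusted p = 0.00765). Ms4a1, which encodes CD20, was at 10.2, 10.8 and 10.2 CPM in PBS and 19.3, 85.5 and 40.1 CPM in IV (log2 fold change 2.20 ± 0.43, adjusted p = 0.00826), and Cd22, an inhibitory coreceptor, rose by 2.27 ± 0.42 on the log2 scale. For both Cd79b and Ms4a1 the saline libraries lay close together and IV 2 was well above the other IV libraries. Of 12 plasma cell markers 7 rose and 1 fell. Jchain, which joins secreted immunoglobulin into polymers, was at 38.0, 54.8 and 35.3 CPM in PBS and 110.0, 262 and 97.3 CPM in IV (log2 fold change 1.87 ± 0.37, adjusted p = 0.00949). Igha, the IgA heavy chain, was at 14.9, 28.7 and 21.1 CPM in PBS and 60.2, 102 and 70.7 CPM in IV (log2 fold change 1.85 ± 0.31, adjusted p = 0.00455). Among 103 immunoglobulin variable segments 36 rose, against 10.4% of all genes, and none fell. Of these segments 54 lay above every saline library in IV 1, 86 in IV 2 and 80 in IV 4. The shares of all genes that did so were 36.8%, 39.3% and 32.7%. The count of risen B cell markers was 6 without PBS 1, 9 without PBS 2 and 4 with the acinar level in the model, and that of plasma cell markers 3, 2 and 3 in those fits and 3 without IV 2. The plasma cell gene that fell was Sdc1 (log2 fold change -0.66 ± 0.16, adjusted p = 0.0212), a call lost without PBS 1 or IV 2.

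**Figure D3:**
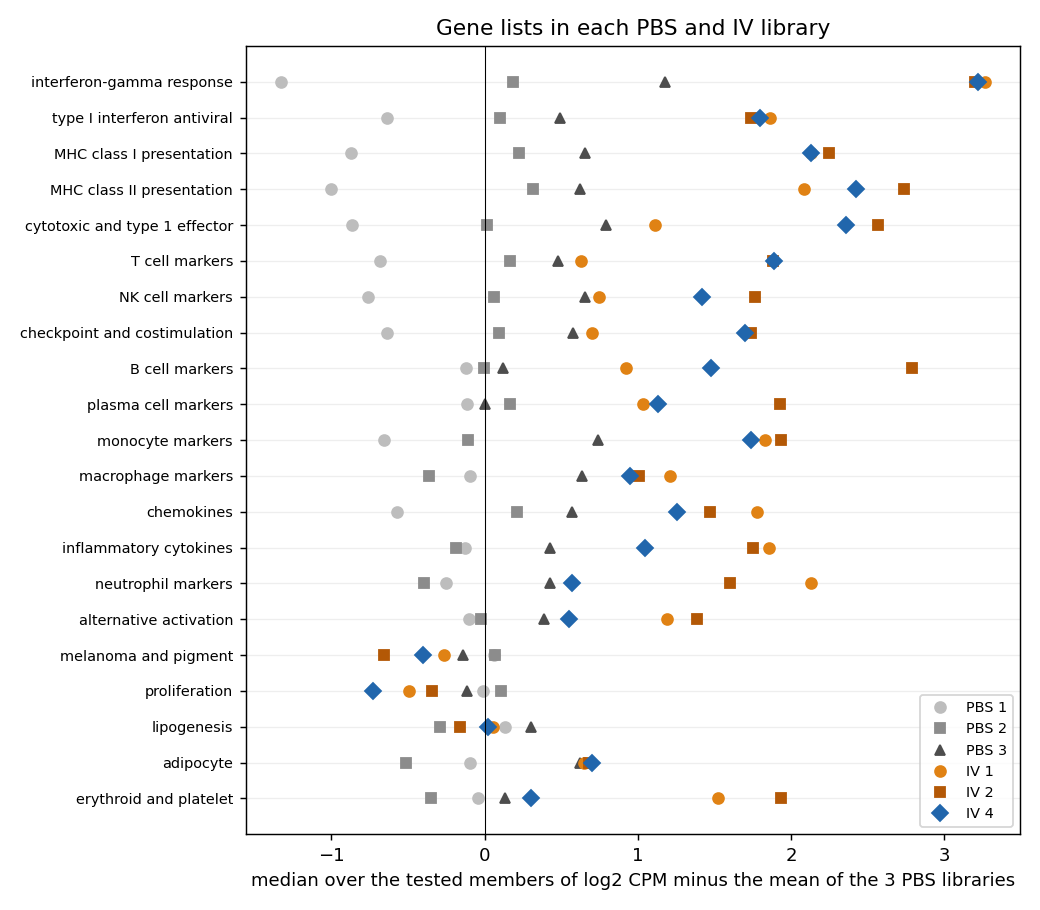
Median over the tested members of 21 gene lists of log2 CPM minus the mean of the 3 PBS libraries, 1 point per PBS or IV library. The IFN-γ response points of the IV libraries lie at 3.20 to 3.27, T cell markers are lowest in IV 1 (0.63), and neutrophil markers are lowest in IV 4 (0.57).

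Macrophage and monocyte genes rose in all 3 libraries. Of 18 macrophage markers 9 rose and none fell (median 0.97), led by Fcgr3, a receptor for IgG. Fcgr3 was at 26.9, 29.5 and 54.4 CPM in PBS and 144, 139.8 and 100.0 CPM in IV (log2 fold change 1.79 ± 0.26, adjusted p = 0.00271). The complement genes C1qa (1.56 ± 0.23), C1qb (1.66 ± 0.24) and C1qc (1.53 ± 0.23) came next by p, on the log2 scale. Of 14 monocyte markers 10 rose and none fell (median 1.70). Ly6c2, the marker of inflammatory monocytes, was at 7.89, 22.4 and 31.7 CPM in PBS and 121, 164 and 112 CPM in IV (log2 fold change 2.68 ± 0.39, adjusted p = 0.00293). Plac8 was at 19.9, 56.4 and 70.3 CPM in PBS and 374, 466 and 223 CPM in IV (log2 fold change 2.86 ± 0.41, adjusted p = 0.00280). Neither gene's groups overlapped. Large peritoneal macrophages, which adhere to the omentum on inflammation, gave 3 rises in 14 markers (median 0.19), against 10.4% of all genes, among them Timd4. That receptor for dying cells was at 27.3, 8.75 and 37.1 CPM in PBS and 125, 69.9 and 54.5 CPM in IV (log2 fold change 1.77 ± 0.46, adjusted p = 0.0300). The others were Apoc1 (0.99) and Icam2 (0.85), on the log2 scale, and none of the 3 rose without PBS 1, IV 1 or IV 2 and 1 without PBS 2 or IP 3, Timd4 being at 0.0957 without PBS 1. Of 16 dendritic cell markers 8 rose and none fell (median 1.16). Clec9a, the receptor by which type 1 dendritic cells take up dead cells, was at 1.61, 2.88 and 3.58 CPM in PBS and 9.02, 18.8 and 17.5 CPM in IV (log2 fold change 2.47 ± 0.33, adjusted p = 0.00216). Its groups did not overlap. The dendritic cell count was 3 without PBS 1 or IV 2.

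Neutrophil genes separated IV 4 from the other IV libraries. S100a8 and S100a9 form calprotectin, an abundant protein complex of neutrophils. S100a8 was at 4.23, 1.54 and 3.13 CPM in PBS 1, 2 and 3 and 31.5, 57.0 and 3.61 CPM in IV 1, 2 and 4, so IV 1 and IV 2 were high and IV 4 lay within the saline range. It rose (log2 fold change 3.32 ± 0.90, adjusted p = 0.0430, edgeR). S100a9 was at 5.65, 3.42 and 4.17 CPM in PBS and 43.7, 90.9 and 4.75 CPM in IV and did not pass (log2 fold change 3.36 ± 0.95, adjusted p = 0.0521). Without IV 4, S100a9 passed (adjusted p = 0.00241). S100a8 lost its call in each fit that left out a library other than IV 4, at 0.0536 to 0.131. Csf3r, the receptor for granulocyte colony-stimulating factor, was at 4.48, 3.65 and 11.4 CPM in PBS and 14.6, 17.6 and 16.5 CPM in IV (log2 fold change 1.30 ± 0.35, adjusted p = 0.0315), a rise shared by IV 4 and lost in each fit without 1 library except that without PBS 3, at 0.0505 to 0.124. In all, 3 of 18 neutrophil markers rose, against 10.4% of all genes, and none fell. Library medians were 2.13, 1.60 and 0.57 in IV 1, IV 2 and IV 4. The count that rose was 5 without IV 4, 7 with DESeq2, and 1 without PBS 1, PBS 2, IP 3, IV 1 or IV 2. Hdc, the histamine-forming enzyme, kept its call in each of the 9 fits without 1 library (log2 fold change 1.02 ± 0.21, adjusted p = 0.0118) and lost it with the acinar level in the model (0.0755) or IV 4 as the single IV library (0.169).

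Globin genes were also higher in IV 1 and IV 2 than in IV 4. Hbb-bs was at 4.75, 5.80 and 5.89 CPM in PBS 1, 2 and 3 and 29.9, 33.5 and 6.67 CPM in IV 1, 2 and 4 (log2 fold change 2.07 ± 0.49, adjusted p = 0.0194). Hba-a1 was at 1.04, 0.883 and 1.75 CPM in PBS and 7.93, 8.14 and 1.78 CPM in IV (log2 fold change 2.22 ± 0.54, adjusted p = 0.0203). For both, IV 4 lay just above the highest saline value. Of 8 erythroid and platelet genes tested 3 rose, against 10.4% of all genes, the third being Hbb-bt. The 12 genes of the list summed to 296, 385 and 232 CPM in PBS and 329, 259 and 230 CPM in IV. Without IV 4, 4 rose, against 13.2% of all genes, and none did without PBS 1, PBS 2, IV 1 or IV 2. Hba-a1 was lost in the same 4 fits (0.0862, 0.0703, 0.0685 and 0.0715). Hbb-bs was at an adjusted p of 0.0874 without PBS 1, 0.0783 without PBS 2, 0.0588 without PBS 3, 0.0565 without IV 1 and 0.0749 without IV 2, and at 6.52e-04 without IV 4. Reads of paired globin genes may be split between near-identical copies.

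Among chemokines, 16 of 28 rose and none fell (median 1.25), with library medians of 1.78, 1.47 and 1.25 in IV 1, IV 2 and IV 4. Cxcl10, which draws CXCR3+ T cells, was at 148, 344 and 353 CPM in PBS and 1511, 1344 and 969 CPM in IV (log2 fold change 2.18 ± 0.30, adjusted p = 0.00251). Ccl12 (2.87 ± 0.33) and Ccl7 (2.51 ± 0.33), ligands of the monocyte receptor CCR2, and Ccl8 (2.21 ± 0.36) rose as well, on the log2 scale. Of 19 inflammatory cytokine genes 12 rose and none fell (median 1.72). Il18bp, the soluble inhibitor of interleukin-18, was at 5.95, 16.4 and 29.7 CPM in PBS and 171, 145 and 174 CPM in IV (log2 fold change 3.23 ± 0.45, adjusted p = 0.00271). Il15, a growth factor for CD8+ T and NK cells, was at 2.76, 2.30 and 3.92 CPM in PBS and 10.8, 10.0 and 9.50 CPM in IV (log2 fold change 1.74 ± 0.21, adjusted p = 0.00182). For both the 3 IV libraries were close to each other and above all saline values. Il27 rose by 2.74 ± 0.37 and Il18 by 0.93 ± 0.12. The cytokine count was 7 without IV 2, and with the deposited log2 CPM 11 rose and 1 fell.

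Of 21 checkpoint and costimulation genes 12 rose and none fell (median 1.34), with library medians of 0.70, 1.74 and 1.70 in IV 1, IV 2 and IV 4. Cd274, the gene of PD-L1, an inhibitory ligand for T cells, was at 16.5, 24.1 and 56.6 CPM in PBS 1, 2 and 3 and 207, 149 and 243 CPM in IV 1, 2 and 4 (log2 fold change 2.62 ± 0.39, adjusted p = 0.00300). The IV values all lay above the saline values, with IV 4 highest. Pdcd1lg2, PD-L2, was at 0.273, 0.653 and 1.32 CPM in PBS and 3.89, 6.27 and 6.12 CPM in IV (log2 fold change 2.78 ± 0.41, adjusted p = 0.00293). Cd86, the ligand of CD28 and CTLA-4, was at 5.08, 8.41 and 11.7 CPM in PBS and 28.3, 44.6 and 31.8 CPM in IV (log2 fold change 2.04 ± 0.27, adjusted p = 0.00208). Without PBS 2 or without IV 2 the count was 7. Of 16 genes of alternative macrophage activation 6 rose, against 10.4% of all genes, and none fell (median 1.06), and 3 rose without PBS 1, PBS 2 or IV 2. Arg1, arginase 1, was at 46.0, 25.8 and 50.2 CPM in PBS and 181, 33.8 and 21.1 CPM in IV, high in IV 1 and within or below the saline range in the other IV libraries (log2 fold change 0.96 ± 0.71, adjusted p = 0.409). Of 15 immediate early and heat shock genes 6 rose, against 10.4% of all genes, and none fell (median 0.39). Among them were Jun (1.15 ± 0.19), Junb (0.88 ± 0.15), Zfp36 (1.17 ± 0.18) and Atf3 (1.45 ± 0.29). In IV 1, IV 2 and IV 4, 11, 9 and 6 of the 15 lay above every saline library and 2, 2 and 1 below. With DESeq2, with the deposited log2 CPM, without a filter or without PBS 3, 1 of the list fell.

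Melanoma genes were lower. Of 16 melanoma and pigment genes 7 fell (5.66% of all genes fell) and none rose, with a median of -0.40 and library medians of -0.27, -0.66 and -0.40 in IV 1, IV 2 and IV 4. Tyr, the enzyme that starts melanin synthesis, was at 1181, 1008 and 931 CPM in PBS 1, 2 and 3 and 567, 475 and 735 CPM in IV 1, 2 and 4 (log2 fold change -0.81 ± 0.17, adjusted p = 0.0124). All IV values were below all saline values, IV 4 lying nearest to them. Slc24a5, an ion exchanger of the melanosome, was at 729.9, 678 and 647 CPM in PBS and 381, 342 and 483 CPM in IV (log2 fold change -0.77 ± 0.15, adjusted p = 0.00851). Oca2 (-0.70 ± 0.17) and Tyrp1 (-0.54 ± 0.13) fell too. Pmel, the fibril protein of the melanosome, was at 7736, 7727 and 7573 CPM in PBS and 7462, 5283 and 6610.0 CPM in IV and did not pass (log2 fold change -0.25 ± 0.14, adjusted p = 0.256). The count that fell was 1 without PBS 1, 2 without IV 2, 3 without IP 4, 4 without PBS 2, IP 2 or IP 3, and 0 when the acinar level entered the model (9 of 16 at an unadjusted p under 0.05 in the edgeR fit with all libraries, and 8 with DESeq2). Tyr was lost without PBS 1 (0.0601), Oca2 without PBS 1 (0.0992), IV 1 (0.0574) or IV 2 (0.0642), and Tyrp1 without PBS 1 (0.0909), IP 4 (0.0538) or IV 2 (0.0715).

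Cell division genes fell in all 3 libraries. Of 25 proliferation genes 15 fell and none rose (median -0.48), and IV 4 was the lowest library, with medians of -0.49, -0.34 and -0.73 in IV 1, IV 2 and IV 4. Mki67, the standard marker of cycling cells, was at 395, 339 and 304 CPM in PBS 1, 2 and 3 and 186, 238 and 190.3 CPM in IV 1, 2 and 4 (log2 fold change -0.76 ± 0.15, adjusted p = 0.00814). The mitotic checkpoint kinase Bub1 was at 113, 111 and 96.9 CPM in PBS and 58.8, 58.2 and 54.8 CPM in IV (log2 fold change -0.90 ± 0.13, adjusted p = 0.00271). Bub1b (-0.71 ± 0.11) and the spindle motor Kif11 (-0.83 ± 0.13) fell as well. No IV value of these 4 genes overlapped a saline value. The count was 6 without PBS 1.

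The largest single falls were smaller than the largest rises. Aqp4, a water channel, fell most by the naming rule, averaging 10.1 ± 2.63 CPM (SD) in the PBS libraries and 2.71 ± 1.03 CPM in the IV libraries (log2 fold change -1.83 ± 0.32, adjusted p = 0.00501). Aldh1a3, a retinoic acid-forming enzyme, was at 10.1, 12.5 and 8.29 CPM in PBS and 3.53, 3.74 and 2.58 CPM in IV (log2 fold change -1.67 ± 0.25, adjusted p = 0.00300). Tnc, the matrix protein tenascin C, was at 11.1, 12.7 and 8.58 CPM in PBS and 3.75, 4.27 and 2.67 CPM in IV (log2 fold change -1.64 ± 0.22, adjusted p = 0.00208). For Aldh1a3 and Tnc, IV 4 was the lowest library. Spry4, a feedback inhibitor of MAP kinase signalling, was at 19.2, 11.6 and 13.1 CPM in PBS and 6.77, 4.54 and 4.36 CPM in IV (log2 fold change -1.47 ± 0.26, adjusted p = 0.00530). Dusp4, a phosphatase of ERK, was at 110.0, 105 and 105 CPM in PBS and 31.0, 50.8 and 52.8 CPM in IV (log2 fold change -1.25 ± 0.18, adjusted p = 0.00288). Hbegf, a ligand of the EGF receptor, fell by 1.27 and the protease Adamts1 by 1.26 on the log2 scale. Of the 15, Aldh1l2 was lost without PBS 1 (adjusted p = 0.0524) and Idi1, an isoprenoid enzyme, without PBS 1 (0.0791) or IV 2 (0.0710). Tmod1, which caps actin filaments, was at 44.9, 37.8 and 41.9 CPM in PBS and 9.20, 8.27 and 28.1 CPM in IV, IV 4 lying well above IV 1 and IV 2 (log2 fold change -1.41 ± 0.38, adjusted p = 0.0298). Its call was lost without any of PBS 1, PBS 2, PBS 3, IP 2, IP 3, IV 1 and IV 2, at up to 0.0958, and its log2 fold change without IV 4 was -2.24.

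Fat tissue genes moved in both directions. Of 15 lipogenesis genes 1 rose and 2 fell, against 10.4% and 5.66% of all genes, with a median of -0.01. Fasn, fatty acid synthase, was at 581, 328 and 659.8 CPM in PBS and 466, 371 and 497 CPM in IV (log2 fold change -0.23 ± 0.24, adjusted p = 0.547) and its groups overlapped. Elovl6, a fatty acid elongase, was at 80.8, 56.1 and 71.3 CPM in PBS and 39.0, 39.4 and 41.4 CPM in IV (log2 fold change -0.80 ± 0.15, adjusted p = 0.00721). Scd2, a desaturase, fell by 1.10 on the log2 scale, a call lost without PBS 1 (0.0589). Thrsp, a regulator of lipogenesis, was at 34.8, 18.8 and 47.9 CPM in PBS and 86.0, 81.1 and 48.4 CPM in IV and rose (log2 fold change 1.08 ± 0.32, adjusted p = 0.0442). PBS 3 and IV 4 were nearly equal, and the call was lost in 7 of the 9 fits without 1 library. Of 18 adipocyte genes 4 rose, against 10.4% of all genes, and none fell, Retn, Pnpla2 (0.91), Lpl (0.80) and Cfd (1.17), and the count was 0 without PBS 1, 1 without PBS 2, 2 without IV 2 and 7 without PBS 3. The resistin gene Retn was at 18.7, 18.6 and 22.5 CPM in PBS and 56.3, 40.0 and 27.7 CPM in IV (log2 fold change 1.05 ± 0.23, adjusted p = 0.0139), lost without PBS 1 (0.0657) or PBS 2 (0.0520). Adipoq, the adipocyte hormone adiponectin, was at 47.5, 38.3 and 80.2 CPM in PBS and 98.9, 86.2 and 66.3 CPM in IV and did not pass (log2 fold change 0.60 ± 0.31, adjusted p = 0.220).

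Among stromal lists, endothelial genes gave the most calls. Of 17 endothelial genes 5 rose, against 10.4% of all genes, and none fell (median 0.23). They were Icam1, Vcam1, Flt1 (0.63), Ackr1 (1.29) and Plvap, with 1 left without PBS 1 or PBS 2 and 2 without IV 2. Library medians were -0.01, 0.63 and 0.28 in IV 1, IV 2 and IV 4. In the same order, 6, 15 and 7 of the 17 lay above every saline library and 5, 0 and 4 below. Icam1, an adhesion molecule for leukocytes, was at 8.57, 13.1 and 25.3 CPM in PBS and 38.3, 56.7 and 53.3 CPM in IV (log2 fold change 1.65 ± 0.33, adjusted p = 0.00933), lost without PBS 2 (0.0563). Vcam1 rose by 1.48 ± 0.34, lost without PBS 1 (0.0694), PBS 2 (0.0886), IV 2 (0.0543) or IV 4 (0.0583). Of 17 fibroblast and matrix genes 2 rose, near the 10.4% of all genes that rose. They were Thy1 (1.00) and Dcn (0.55), both lost without PBS 1 (0.109 and 0.152), PBS 2 (0.0795 and 0.127) or IV 2 (0.0992 and 0.143). The 1 that fell was Postn, periostin, at 45.2, 47.3 and 38.3 CPM in PBS and 25.5, 21.7 and 26.0 CPM in IV (log2 fold change -0.83 ± 0.14, adjusted p = 0.00479). Of 14 mesothelial genes 2 rose, against 10.4% of all genes, and none fell. They were Igfbp5 (1.61 ± 0.32), lost without PBS 2 (0.0545), and Rspo1 (1.53 ± 0.31), lost without PBS 1 (0.0519). In edgeR, none of 17 hypoxia and glycolysis genes passed (2 at an unadjusted p under 0.05, 0 with DESeq2) and none of 16 genes of the unfolded protein response (1 unadjusted, 1 with DESeq2). Of 8 mitochondrially encoded genes 1 fell, against 5.66% of all genes. It was mt-Nd5 (-0.91 ± 0.26, adjusted p = 0.0388, edgeR), lost in 6 of the 9 fits without 1 library. Mitochondrial genes took 2.15 to 2.25% of counts in the IV and 2.26 to 3.09% in the PBS libraries. Xist, the noncoding RNA of the inactive X chromosome, was at 65.8, 36.5 and 84.8 CPM in PBS and 92.1, 181 and 165 CPM in IV, detected in all 6 (log2 fold change 1.22 ± 0.31, adjusted p = 0.0245), and was lost without PBS 1 (0.0797), PBS 2 (0.0651), IV 2 (0.0943) or IV 4 (0.0719).

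Pancreatic transcripts were abundant in IV 1 and IV 2 and not in IV 4; of the IP libraries, IP 4 held them too, its acinar genes summing to 21491 CPM against 225 and 287 in IP 2 and IP 3. Pnlip, pancreatic lipase, had 26, 7 and 2 counts in PBS 1, 2 and 3 and 108064, 6337 and 3 in IV 1, 2 and 4. Cpa1, a carboxypeptidase of the digestive juice, was at 0.164, 0.345 and 0 CPM in PBS and 1797, 275 and 0.0913 CPM in IV. Clps, colipase, was at 0.464, 0.576 and 0 CPM in PBS and 1196, 222 and 0 CPM in IV. IV 4 was at the saline level for all of these. With all libraries, 1 of 25 acinar genes passed in edgeR, Bhlha15 (log2 fold change 3.59 ± 0.84, adjusted p = 0.0178), lost without PBS 1 (0.0606), PBS 2 (0.0625) or IV 1 (0.0719). In that fit 21 of the 25 had an unadjusted p under 0.05, and 23 passed with DESeq2. Without IV 4, 6 passed in edgeR. Islet genes gave no call in 4 tested (none unadjusted, 1 with DESeq2), and Ins2 was at 2.40 CPM in IV 1, 0.534 in IV 2 and 0 in the other libraries compared. Of 7 duct genes 1 rose, Muc1 (2.97), and of 6 stomach and gut genes 1, Cdh17 (1.67), where 10.4% of all genes rose. Against the same share, 2 of 10 muscle genes rose, Des (0.59) and Tnni2 (2.13), and of 8 hepatocyte genes none (1 unadjusted, 0 with DESeq2). These 4 calls were lost without PBS 1 (0.100, 0.0854, 0.0989 and 0.145) and without PBS 2 (0.0928, 0.0590, 0.0660 and 0.0992). The part of the pancreatic tissue in the other differences of IV 1 and IV 2 was not tested. Leaving the acinar genes out before scaling gave 2779 calls, while fitting the acinar level as an extra term gave 1256.

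How far IV 4 went with IV 1 and IV 2 was described on genes called without it. In the fit of the other 8 libraries, 2332 of 17601 genes rose (13.2%) and 2248 fell (12.8%), and 2464 of these 4580 were also called with IV 4 in the fit, which is 53.8% of them and 89.5% of the 2753 calls with all libraries. No gene was called in opposite directions. Of the 2277 risen genes tested in both fits, 1779 (78.1%, Wilson 95% interval 76.4 to 79.8%) lay above all 3 saline libraries in IV 4, against 32.7% of all genes. For the 2245 that fell, 1325 (59.0%, 57.0 to 61.0%) lay below all saline libraries in IV 4, against 32.5%; 746 lay within the saline range and 174 above it. The saline libraries enter both the choice of genes and the position, and genes are not independent, so these shares are a description and the intervals cover counting error only.

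The same procedure was applied to the other IV libraries. Left out in turn, IV 1 lay above all saline libraries for 1371 of 1605 risen genes (85.4%, against 36.8% of all genes) and below them for 578 of 608 that fell (95.1%, against 32.3%). IV 2 did so for 971 of 988 (98.3%, against 39.3%) and 409 of 414 (98.8%, against 34.3%). With an adjusted p under 0.01 as the threshold the order of IV 1 and IV 4 turned for rises, with 90.9% beyond saline in IV 1 and 91.8% in IV 4, and for falls the shares were 99.0% and 65.5%. The sets for IV 1 and IV 2 were called with IV 4 in the fit and the set for IV 4 without it, so they are not the same genes. On a scale where 0 is the saline mean and 1 the mean of the other 2 IV libraries, and for genes that differed by at least 1 on the log2 scale, the median position of IV 4 was 0.80 for 1458 rises (quartiles 0.48 and 1.00) and 0.25 for 412 falls (0.03 and 0.52). The medians for IV 1 were 0.71 and 0.81, and for IV 2 1.13 and 0.93. These medians cannot rank the libraries, because the genes and the pair of libraries that sets the value 1 differ between them. On its own scale, IV 4 lay nearer to the mean of IV 1 and IV 2 for rises than for falls.

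**Figure D4:**
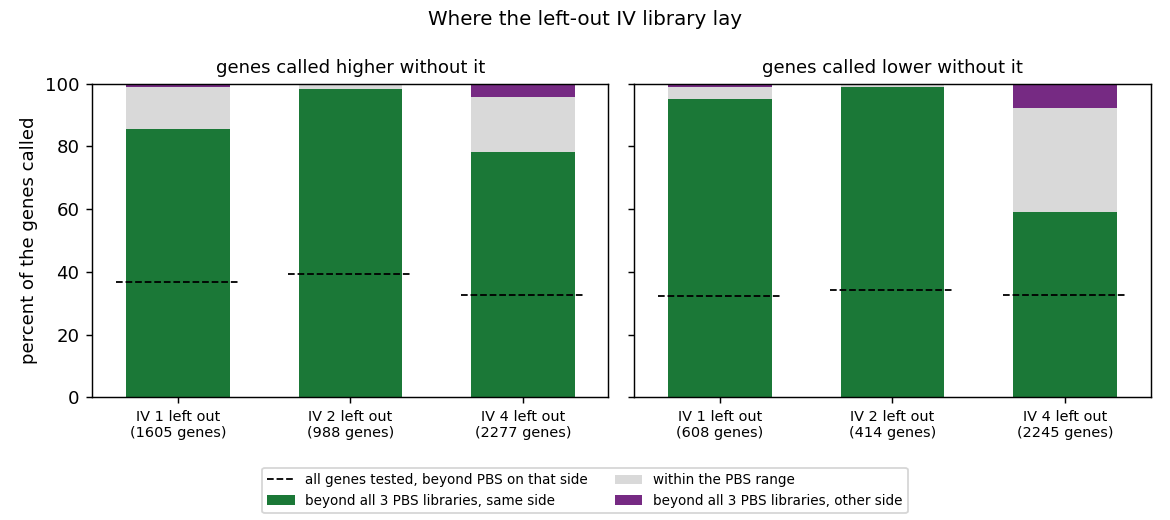
Share of the genes called higher (left) or lower (right) without an IV library that lay, in that library, beyond all 3 PBS libraries on the same side, within their range or beyond them on the other side; dashed lines give the share of all genes beyond PBS on that side. IV 4 shows the smallest same-side shares, 78.1% and 59.0%.

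The gene groups differed in where IV 4 stood. Among members that rose without IV 4, it lay above all saline libraries for 25 of 25 IFN-γ response genes (median position 0.97), 24 of 24 antiviral genes (0.93), 19 of 19 MHC class I genes (0.97), 11 of 11 MHC class II genes (1.00) and 13 of 13 effector genes (1.05). For T cell markers this held for 9 of 9 (1.22), for checkpoint genes 11 of 11 (1.09) and for B cell markers 16 of 17 (0.87, the exception being Vpreb3). Macrophage markers gave 9 of 9 (0.77) and chemokines 15 of 17 (0.77), Ccl6 and Ccl24 being within the saline range. At the other end stood the neutrophil genes, 1 of 5 (0.10), with S100a8, S100a9, Mmp8 and Ltf within the saline range, and the acinar genes, 1 of 6 (-0.04). Among members that fell, it lay below saline for 14 of 14 proliferation genes (1.26) and 7 of 7 melanoma genes (0.52). These list medians take every called member. The median positions over all genes took only genes that differed by at least 1 on the log2 scale, so the list medians cannot be set against them. For members with smaller differences the position divides by a small number.

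By the naming rule, the genes in which IV 4 went furthest beyond IV 1 and IV 2 were Pla2g4c, a phospholipase A2, at 2.76, 2.03 and 3.29 CPM in PBS and 7.57, 9.87 and 22.2 CPM in IV (position 1.80), and Folh1 (1.69), Axl (1.66), Ly75 (1.66), Ifit2 (1.65), Erap1 (1.58), Rap1gap2 (1.57) and Cd247 (1.54). Axl, a receptor for apoptotic cells, was at 50.5, 56.9 and 115 CPM in PBS and 156, 162 and 277 CPM in IV. Ly75, the dendritic cell receptor DEC-205, was at 6.42, 4.68 and 8.74 CPM in PBS and 12.7, 16.1 and 24.3 CPM in IV. All 8 rose with all libraries in edgeR, at adjusted p between 0.00369 and 0.0195. The calls of Axl and Rap1gap2 were lost without PBS 1 (0.0630 and 0.0874) or PBS 2 (0.0692 and 0.0763), of Folh1 and Cd247 without PBS 1 (0.0558 and 0.0567) and of Erap1 without PBS 2 (0.0594). At the low end of the rises were the pancreatic genes Clps, Pdia2, Zg16 and Pnlip, the mucosal gene Dmbt1, with Clec4d (-0.74), Ggt1 (-0.16) and Rps10 (-0.09). Clec4d, a C-type lectin of myeloid cells, was at 8.25, 7.33 and 8.19 CPM in PBS and 28.3, 10.3 and 4.47 CPM in IV, IV 4 lying below every saline library, and none of these 8 passed with all libraries (edgeR). The 8 genes at each end were picked by the position of IV 4, so whether they passed with it follows largely from the choice.

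Among falls, Aldh1a3, Tnc, Spry4, Mmp15, Lrp8, Ddah1, Limch1 and Fez1 were as low or lower in IV 4 than the mean of IV 1 and IV 2. Lrp8, a receptor of reelin, was at 26.4, 21.6 and 16.9 CPM in PBS and 10.4, 10.7 and 7.26 CPM in IV (log2 fold change -1.21 ± 0.21, adjusted p = 0.00488). The opposite end held Atm, Gse1, Dennd4c, Mfsd4a, Pcdhgb2, Dgkq, Zc3h11a and Ap4e1. Atm, the kinase that senses DNA breaks, was at 41.9, 30.7 and 42.1 CPM in PBS and 13.4, 23.5 and 61.8 CPM in IV (position -0.65): IV 1 and IV 2 were below saline and IV 4 above it. Without IV 4 it fell (adjusted p = 0.0105, edgeR), and with all libraries it did not pass (log2 fold change -0.20 ± 0.43, adjusted p = 0.790). Atm was picked by the position of IV 4, so the loss of its call follows largely from the choice. Pcdhgb2, a clustered protocadherin, was at 23.5, 13.9 and 24.7 CPM in PBS and 5.93, 9.47 and 25.8 CPM in IV (position -0.26), with PBS 2 the lowest saline library, as it was for all 8 of these genes. Kcnj13 and Slc7a11 were named after their values were seen. With 1 IV library kept at a time, IV 4 gave them a call opposite to that of IV 1 or IV 2. Opposite calls between IV 1 and IV 2 were not counted. Kcnj13, a potassium channel, was at 100.3, 83.5 and 102 CPM in the PBS libraries and 83.5, 51.6 and 184 CPM in IV 1, 2 and 4. In each of the 3 fits that kept a single IV library, the spread of the lone library was assumed to be that of the other groups.

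Set against the IP route in the same fit, 765 genes were higher in IV (4.47%) and 1015 lower (5.93%). This contrast takes the difference between the routes directly. The saline libraries enter it through the filter on low counts, the scaling and the spread that all 9 libraries share in the fit. Ifng was at 715 ± 131 CPM in the 3 IP libraries (mean ± SD) and 13.3 ± 2.60 CPM in the IV libraries (log2 fold change, IV minus IP, -5.76 ± 0.61, adjusted p = 8.24e-04). Nos2 (-4.51 ± 0.86, adjusted p = 0.0156), Arg1 (-4.06 ± 0.80, adjusted p = 0.0160) and Gzmb (-4.01 ± 0.47, adjusted p = 8.61e-04) were lower in IV too, as were 20 of 28 chemokines. Of 32 IFN-γ response genes 5 were lower in IV and none higher (median difference -0.52 on the log2 scale), a count that was 0 without IP 2 or IP 3, 1 without IV 4, 2 without IV 2, 3 without IP 4 or IV 1 and 9 without PBS 1. Of 20 MHC class I genes none was called either way (median -0.35; 2 lower without PBS 1). Higher in IV were 15 of 18 B cell markers, with Ms4a1 at 48.3 ± 33.9 CPM in IV and 8.25 ± 1.89 CPM in IP (2.53 ± 0.43, adjusted p = 0.00525). So were 10 of 15 lipogenesis genes, with Thrsp at 71.9 ± 20.4 CPM and 2.33 ± 0.551 CPM (4.95 ± 0.39, adjusted p = 1.35e-04). Of 25 proliferation genes 15 were higher in IV, with Mki67 at 205 ± 28.6 CPM and 129 ± 8.01 CPM (0.66 ± 0.15, adjusted p = 0.0173). Trbv12-1 was at 1.38 ± 1.12 CPM in IV and 7.89 ± 1.51 CPM in IP (-2.45 ± 0.61, adjusted p = 0.0288). Without IP 2 the edgeR calls of Nos2 (0.0558), Arg1 (0.0587), Mki67 (0.0949) and Trbv12-1 (0.110) were lost. The same 4 were lost without IP 3 (0.0509, 0.0541, 0.0570 and 0.0921). Mki67 and Trbv12-1 were also lost without IP 4 (0.0729 and 0.0558) or IV 2 (0.0553 and 0.0881), and Nos2 without IV 4 (0.0527). Ifng, Gzmb, Ms4a1 and Thrsp kept theirs in each of the 9 fits. The count of chemokines lower in IV was 13 without IP 2, that of B cell markers higher in IV 8 without IP 3, and that of proliferation genes 5, 7, 6 and 9 without IP 2, IP 3, IP 4 and IV 2. Without IV 4 the number of genes that differed between the routes was 2873, without IP 2 673, without IP 3 791 and without IP 4 1058, against 1780 with all libraries.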

How the data were processed

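Bulk poly(A) RNA of the omentum, from a directional NEBNext kit per the labels' protocols, was sequenced in 9 mice, 1 library each. The authors deposited a table of raw counts of read pairs per gene and a table of log2 CPM (counts scaled to the library total). Per the submitters' processing notes the mm39 build, featureCounts, limma and STAR 2.7.9 were used, with no role stated. The counting's strand setting and annotation release are not given there or in the labels, so overlapping and antisense genes cannot be told apart. Genes were named by identifier from a GRCm38 table (17087 of 17123 tested). Counts were tested with edgeR 4.0.16 (R 4.3.3) in 1 robust quasi-likelihood fit of all 9 libraries, after filterByExpr and TMM scaling, with the contrasts IV minus PBS and IV minus IP, two-sided, Benjamini-Hochberg adjustment over all genes tested and a threshold of 0.05. Each standard error was taken as the log2 fold change over √F of its test. CPM are TMM-scaled. Counting error and precision follow depth, 7379798 to 44626843 counts per library.

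Named genes were the 15 largest rises and falls with a mean of at least 5 CPM, up to 4 members of each of 36 lists with the smallest p, 20 chosen genes, the 8 highest and lowest positions of IV 4 in each direction, and the 8 largest differences between the routes each way. Some genes that this rule names are not reported here. The members and lists were chosen with earlier results of these data known. Alternatives were DESeq2 1.42.0, its size factors, limma 3.58.1 (voom, and on the deposited log2 values), 2 filters, fits of fewer libraries, a replicate block, the acinar level as a term, acinar genes left out and counts thinned to the shallowest library. The test was tried on simulated data. No pair of libraries within the IV or the PBS group differed by as little as sampling noise (smallest chi-square per degree of freedom 29.0).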

Additional observations from a re-analysis of the deposited data

Results flagged for a closer look

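The effects of the intravenous and intraperitoneal routes differed for 1780 genes in the direct contrast of edgeR, and 12 of the 20 chosen genes were among them. On the log2 scale, IV minus IP, the difference was -5.76 for Ifng, -4.51 for Nos2, -4.06 for Arg1, -4.01 for Gzmb, -2.45 for Trbv12-1, -1.38 for Cd274 and -1.24 for Cxcl10. It was 4.95 for Thrsp, 1.90 for Fasn, 0.99 for Tyr, 0.66 for Mki67 and 0.63 for Pmel. Leaving out 1 library ended the calls of Nos2, Arg1, Trbv12-1, Cd274, Cxcl10, Mki67 and Pmel in at least 1 fit, at adjusted p up to 0.144 (Cd274 without IV 2), whereas those of Ifng, Gzmb, Thrsp, Fasn and Tyr held in each of the 9 fits. Groups of 3 libraries were too small for a test of single outlying values.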

How the results depend on the processing

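Of the 2753 genes called between IV and PBS (1784 higher, 969 lower), leaving out 1 library gave 980 to 4580 (770 to 2332 and 210 to 2248), the IV and PBS libraries alone 1210 (935 and 275), IV 4 as the single IV library 1059 (784 and 275) and the acinar level as a term 1256 (975 and 281). With IV 1 alone 1094 were higher, with IV 2 alone 2067 were lower, and with DESeq2 1766 were lower. The labels do not say whether the replicate numbers of the titles pair the mice. Same-numbered deviations from the group means correlated at r = 0.05 and 0.04. Differently numbered ones ran from -0.34 to 0.26, so these values cannot decide it. The replicate block gave 2044 calls with 571 lower. Between IV and IP, 1780 calls (765 higher, 1015 lower) became 673 to 2873 (238 to 1164 and 435 to 1709) without 1 library, 2765 (1248 higher) with DESeq2 and 1134 (508 and 626) with the block. At an adjusted p under 0.01, the shares of rises and falls in which the left-out library lay beyond saline were 90.9 and 99.0% for IV 1, 100 and 100% for IV 2 and 91.8 and 65.5% for IV 4. Without a filter they were 70.9 and 90.4% for IV 1, 95.3% (rises) for IV 2 and 68.8 and 51.4% for IV 4, and thinned counts gave 99.2% (rises) for IV 2. Cxcl5, at 0.06 on the log2 scale with all libraries, was at -1.98 without IV 1 and up to 0.64 without IV 4; no other gene named in the text reversed. Without a filter, 8 effector genes, 6 T cell, 4 NK, 9 B cell, 4 plasma cell, 5 dendritic cell and 4 monocyte markers rose, and 4 melanoma genes fell. With the IV and PBS libraries alone, 9 T cell markers and 7 inflammatory cytokines rose, and 1 melanoma and 7 proliferation genes fell. The causes of these changes were not tested. The fits without 1 library or with the IV and PBS libraries alone held fewer libraries, and the fit without a filter tested 32922 genes against 17123. Depth limits IV 2 most: genes with few counts there carry the widest counting error.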
